A study of Mus musculus with 20 samples.

Results

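The genes described here are those that were expressed in unstimulated mouse macrophages and stood higher under the DOT1L inhibitor SGC0946 in each of 3 conditions. They were chosen from the counts themselves. A gene entered when its mean in unstimulated control cells was 2 CPM or more (read counts relative to the library total, scaled between libraries by the trimmed mean of M values, TMM) and when, in unstimulated, LPS-treated and GW3965-treated cells alike, every SGC0946 library lay above every control library. The difference of the mean log2(CPM + 0.5), called the rise below, also had to be 0.4 or more in each condition. Of 24342 gene symbols, 10496 reached the level in control cells and 104 met the whole rule, which is 0.991% of those 10496. The rises and the lack of overlap are therefore what chose the genes. They are given as descriptions with no test, and the same holds for differences between the rises of the 3 conditions.

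The cells were macrophages grown from bone marrow of C57BL/6 mice in L929-conditioned medium, a source of the growth factor M-CSF. During differentiation they received 1 µM SGC0946 or the solvent DMSO. Each arm has 4 libraries of unstimulated cells, 3 of cells that had Escherichia coli lipopolysaccharide (LPS, 10 ng/mL) for 3 h, and 3 of cells that had the liver X receptor agonist GW3965 (2 µM) for 17 h. All 20 libraries thus come from cells of the same strain in the same medium, and every group received either SGC0946 or its solvent. The labels call the libraries of a group biological replicates, and the deposited sample sheet ties each replicate number to a mouse.

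DOT1L is the histone methyltransferase that places methyl groups on lysine 79 of histone H3, a mark found over the bodies of transcribed genes. SGC0946 occupies the pocket that binds the methyl donor and blocks the enzyme's activity. The mark is known as a feature of active transcription and is best studied in leukaemias that depend on DOT1L. LPS acts through Toll-like receptor 4 and switches on inflammatory genes, while liver X receptors respond to oxysterols and switch on genes of cholesterol export.

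Library depth was 8.17 to 13.3 M counts in the table of 1 transcript per symbol. Macrophage markers were high in every library, with a summed level of 15570 to 17166 CPM in unstimulated DMSO cells and 13039 to 17570 CPM in SGC0946 cells. Dot1l itself, whose RNA the inhibitor does not target, was at 58.5 ± 3.86 CPM (SD, n = 4) in unstimulated DMSO cells and 51.8 ± 9.64 CPM (SD, n = 4) in SGC0946 cells, a log2 difference of -0.18 ± 0.13 (SE, edgeR adjusted p = 0.44). The titles of 6 libraries carry the word reanalyzed, namely the first 3 of the unstimulated DMSO replicates and all DMSO+GW3965 libraries. The word occurs in the DMSO arm alone, so with GW3965 it cannot be told apart from the inhibitor. No LPS library carries it. In unstimulated cells the median rise was 0.85 against DMSO replicate 4, which lacks the word, and 0.82 against replicates 1 to 3. The rule fixes the direction of both and of the rise after LPS, so these values support nothing about the word, whose part was not tested.

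The rises were of similar size in the 3 conditions. The median rise over the 104 genes was 0.82 in unstimulated cells (1.76-fold), 0.78 after LPS (1.72-fold) and 0.83 with GW3965 (1.78-fold). Over all genes at the same level in control cells the medians were -0.02, -0.02 and -0.01. Single rises ran from 0.43 to 2.17, from 0.43 to 2.29 and from 0.43 to 2.05 in the same order. A rise of 1 or more, a doubling, was reached by 29 genes in unstimulated cells, 24 after LPS and 33 with GW3965. In 1 condition alone the rule was met by more genes: 241 in unstimulated cells (2.30% of the 10496), 334 after LPS (3.18%) and 245 with GW3965 (2.33%). The same rule turned round, for genes lower under SGC0946 throughout, was met by 72 genes.

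Within each mouse the picture was the same. Every one of the 104 genes was higher in the SGC0946 library than in the DMSO library of the same mouse in all 3 conditions, which the rule fixes. The median rise within a mouse was 0.78, 0.89, 0.74 and 0.92 in unstimulated cells of mice 1 to 4. It was 0.69, 0.82 and 0.77 after LPS and 0.83, 0.90 and 0.76 with GW3965 in mice 1 to 3. Mouse 2 gave the largest median after LPS and with GW3965, and mouse 4 gave it in unstimulated cells. SGC0946 replicates 2 and 4 stood apart from replicates 1 and 3 in several genes below. Without both of them the rule was met by 96 genes, 93 of them among the 104.

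**Figure D1:**
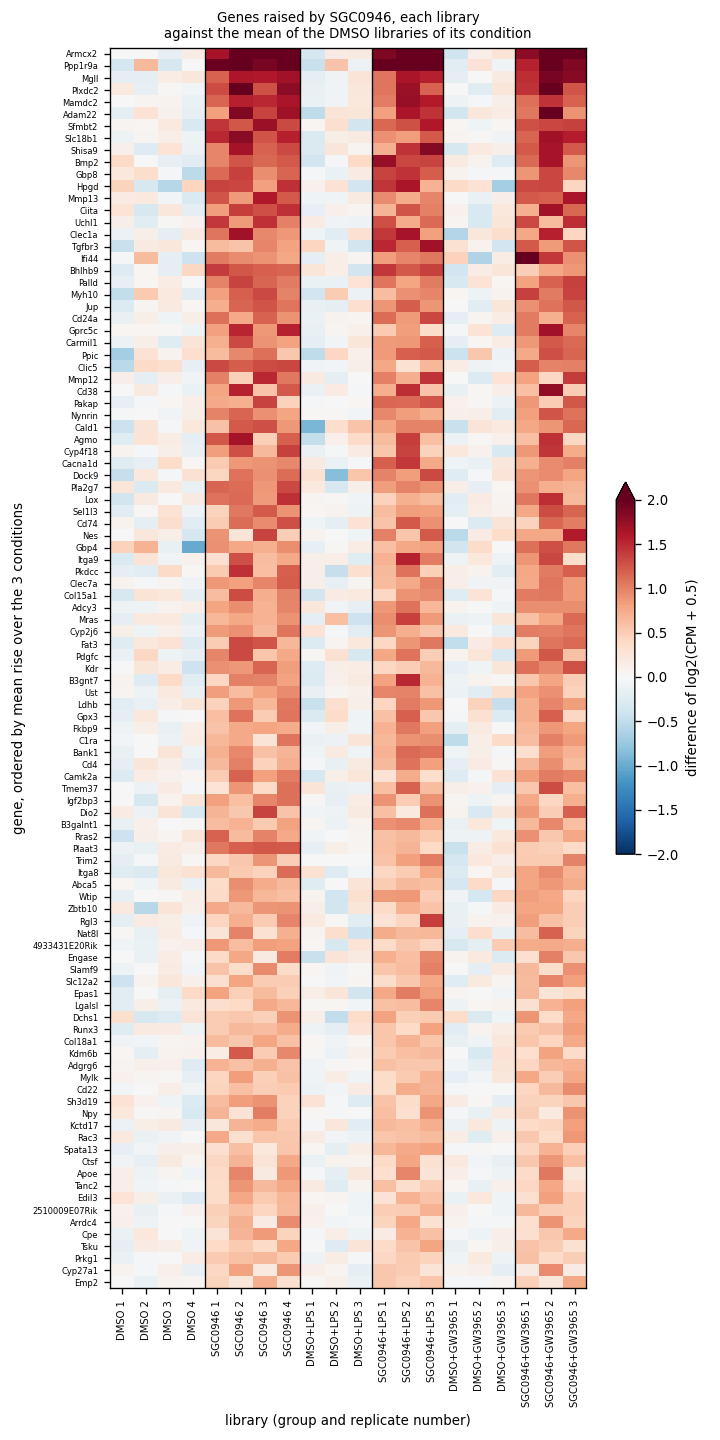
Each row is 1 gene, ordered by the mean of its 3 rises, and each column is 1 library. The colour is the library's log2(CPM + 0.5) minus the mean of the DMSO libraries of its condition, from blue (lower) to red (higher), cut at 2. The 10 SGC0946 columns are red throughout, and the strongest red lies in the top rows, where the rises of Armcx2 and Ppp1r9a reached 2.10 and 2.17 in unstimulated cells.

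The genes just inside and just outside the rule show how sharp its edges are. By level, Itga8 (2.01 CPM), Armcx2 (2.11) and 4933431E20Rik (2.16) were just inside and Tspan7 (1.88), Satb1 (1.85) and Armcx6 (1.84) just outside. By the smallest of the 3 rises, Epas1 (0.43), Spata13 (0.43) and Cyp27a1 (0.43) were just inside and Pilra (0.40), Arap3 (0.40) and Klhl22 (0.39) just outside. By the gap between the lowest SGC0946 and the highest DMSO library, Gbp4 (0.0065), Dchs1 (0.0099) and B3gnt7 (0.015) were just inside on the log2 scale. Ston2 (-0.016), Gng11 (-0.025) and C1qa (-0.031) were just outside.

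The largest mean rise belonged to Armcx2 (chrX:134804142-134809221, GRCm38.p6), a gene of the armadillo-repeat family on the X chromosome. It read 2.1, 2.12, 1.83 and 2.4 CPM in the 4 unstimulated DMSO libraries and 7.64, 12.7, 12.2 and 10.9 CPM in the 4 SGC0946 libraries. After LPS the values were 1.5, 2.34 and 2.35 CPM in DMSO cells and 8.78, 12.5 and 15.4 CPM in SGC0946 cells. With GW3965 they were 1.61, 2.56 and 2.87 CPM and 9.16, 12.3 and 11.9 CPM. The lowest SGC0946 library of any condition was thus more than double the highest DMSO library, and the rises were 2.1, 2.29 and 2.05. Bhlhb9, another gene of the same X-linked family, was also among the 104, with rises of 1.25, 1.34 and 0.71.

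Ppp1r9a (chr6:4902872-5165661) encodes neurabin, a scaffold that binds actin and protein phosphatase 1. Its unstimulated DMSO libraries held 3.1, 6.69, 3.18 and 4.12 CPM and its SGC0946 libraries 17.5, 31.7, 16.6 and 18 CPM. SGC0946 replicate 2 stood well above the other three, and DMSO replicate 2, of the same mouse, was the highest of its group too. The rises were 2.17 in unstimulated cells, 2.18 after LPS and 1.98 with GW3965. Neither LPS nor GW3965 changed Ppp1r9a past the threshold of edgeR's test in either arm, without the mouse in the fit. With the mouse as a block, its LPS response in SGC0946 cells passed (-0.32, adjusted p = 0.023, against -0.29 and 0.33 without the block).

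Mgll (chr6:88724412-88828360) encodes monoacylglycerol lipase, which cleaves the endocannabinoid 2-arachidonoylglycerol and other monoacylglycerols. It read 5.03, 5.04, 6.45 and 6.82 CPM in unstimulated DMSO cells and 13.8, 18.8, 18.6 and 19.7 CPM in SGC0946 cells. The groups were far apart, and the rises were 1.52, 1.42 and 1.73. Hpgd, the enzyme that inactivates prostaglandins by oxidation, had rises of 1.24, 1.25 and 1.03. The 9 enzymes and transporters of lipids and eicosanoids among the 104 had median rises of 1.12, 0.79 and 0.83.

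Plxdc2 (chr2:16355740-16761132), a transmembrane protein with a plexin-like domain, read 13, 9.94, 11.4 and 10.8 CPM in unstimulated DMSO cells and 28.4, 47.2, 28 and 40.2 CPM in SGC0946 cells. SGC0946 replicates 2 and 4 were higher than replicates 1 and 3. Mamdc2 (chr19:23302609-23448497), a secreted proteoglycan with MAM domains, read 17.1, 17.9, 18.1 and 15.7 CPM and 39, 51.5, 49.6 and 54.3 CPM. Adam22, a catalytically inactive member of the ADAM family that binds LGI proteins, read 2.93, 4.31, 3.66 and 3 CPM and 6.42, 13.8, 9.56 and 12.3 CPM. In all 3 genes the SGC0946 libraries spread more widely in CPM than the DMSO libraries while staying above them.

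Sfmbt2 (chr2:10370440-10595253), a Polycomb-group protein with MBT repeats, read 2.35, 2.32, 2.63 and 1.72 CPM in unstimulated DMSO cells and 6.86, 5.96, 8.57 and 6.34 CPM in SGC0946 cells. Its rises of 1.43, 1.35 and 1.32 were the largest of the 7 genes for transcription, chromatin and RNA-binding proteins. Kdm6b, the demethylase of lysine 27 of histone H3, Runx3, a Runt-family factor of lymphoid and myeloid cells, and Epas1, the hypoxia-inducible factor 2 alpha, were in the same group, with unstimulated rises of 0.71, 0.63 and 0.6. Slc18b1, a polyamine transporter of vesicles, had rises of 1.53 in unstimulated cells, 0.99 after LPS and 1.47 with GW3965. Shisa9, which modulates AMPA-type glutamate receptors in neurons, had rises of 1.28, 1.33 and 1.37.

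**Figure D2:**
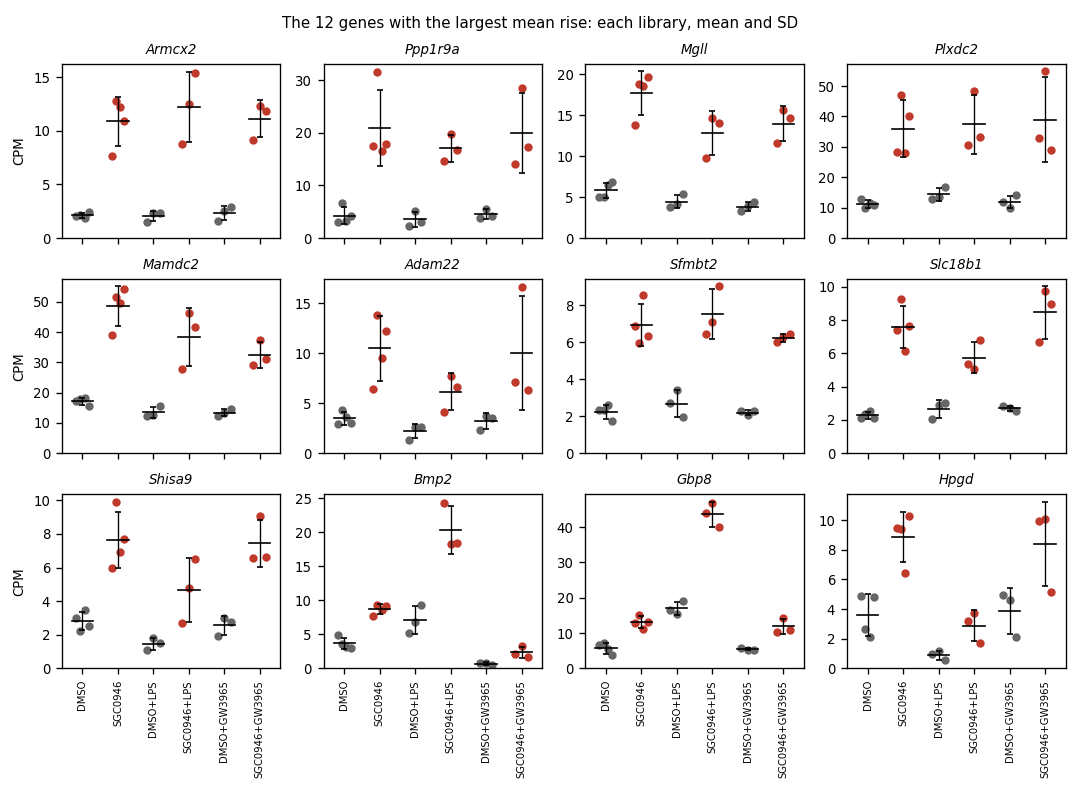
Each panel is 1 of the 12 genes with the largest mean rise, with CPM on a linear axis from 0 and the 6 groups along the horizontal axis. Points are libraries (grey for DMSO, red for SGC0946), the bar is the mean and the whisker the SD. In each panel and condition the red points lie above the grey ones, and Bmp2 falls in both arms with GW3965 while Gbp8 climbs in both with LPS.

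By role, grouped after the members were known, 11 of the 104 genes were antigen presentation genes and immune cell receptors. Ciita is the master activator of MHC class II genes and Cd74 is the invariant chain that guards the class II groove. Ciita read 6.04, 3.84, 5.81 and 4.27 CPM in unstimulated DMSO cells and 9.11, 13.6, 12.7 and 14.3 CPM in SGC0946 cells. After LPS it read 27.5, 32.9 and 32.1 CPM and 49.6, 74.4 and 62.1 CPM, so the arms stayed apart at a higher level. Cd74 read 152, 127, 184 and 124 CPM in unstimulated DMSO cells and 205, 315, 281 and 354 CPM in SGC0946 cells, with rises of 0.96, 0.9 and 0.88.

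Of 12 other genes of class II presentation tested, 5 were higher under SGC0946 in unstimulated cells and none lower. Of all 12013 genes tested, 4.55% were higher and 4.18% lower there by edgeR at an adjusted p under 0.05. H2-Ab1, a beta chain of class II, rose by 1.06 (adjusted p = 0.0067), and H2-Aa, its alpha chain, by 0.79 (adjusted p = 0.011). After LPS 5 of the 12 were higher and none lower (3.86% and 3.26% of all genes). With GW3965 H2-Ob, a chain of the regulator H2-O, was higher and none lower (2.24% and 1.4% of all genes). The median log2 difference of the 12 was 0.27, 0.41 and 0.15, against about 0 over all genes. Earlier results on these libraries were known when the list was made, so it is no independent evidence. Over all 239 tested list genes outside the 104, the number higher in unstimulated cells was 28, and 6 without SGC0946 replicates 2 and 4. The share of all genes without those replicates is not given here.

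Clec7a, the beta-glucan receptor Dectin-1, read 187, 172, 184 and 168 CPM in unstimulated DMSO cells and 323, 315, 350.2 and 412 CPM in SGC0946 cells. Its neighbour Clec1a, a C-type lectin receptor of the same cluster, had rises of 1.14, 1.3 and 0.92. Cd4, the coreceptor of helper T cells, read 7.88, 10.7, 9.79 and 8.02 CPM and 14.4, 18.6, 12.6 and 15.2 CPM. Cd22, an inhibitory receptor known from B cells, read 9.73, 10.1, 11.1 and 9.67 CPM and 14.1, 15.6, 14.4 and 14.7 CPM. Bank1, a B cell scaffold protein, Cd24a, a small glycosylated surface protein, Slamf9, a SLAM-family receptor, and Cd38, an NAD-consuming ectoenzyme, were in the same group, with unstimulated rises of 0.73, 0.98, 0.56 and 1.03.

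Markers of other cells moved beside these genes. Summed levels of 10 dendritic cell markers were 13.5 to 21 CPM in unstimulated DMSO cells and 24.4 to 35.4 CPM in SGC0946 cells, and those of 8 osteoclast markers were 303 to 343 and 379 to 496 CPM. Summed levels of 16 neutrophil markers went the other way and were 124 to 140 CPM in DMSO cells and 78.2 to 107 CPM in SGC0946 cells. Most of that sum was Csf3r (means of 57.8 and 54.9 CPM) and Mmp8 (32.9 and 31.1 CPM), which moved little. Means fell further for S100a8 (6.00 and 0.94 CPM), S100a9 (11.8 and 1.26 CPM), Ngp (8.87 and 0.84 CPM) and Ltf (7.09 and 1.20 CPM). The 8 monocyte markers summed to 94.5 to 111 and 47.9 to 104 CPM. Among these, means of Ccr2 (41.1 and 30.6 CPM) and F13a1 (52.0 and 38.5 CPM) fell, while that of Fn1 went up (0.87 and 4.08 CPM). In bulk libraries fewer cells of a type and less RNA per cell cannot be told apart, and the part of these cells in the rises was not tested. Summed levels of B cell markers, 11 of them in the table, were 13.6 to 15.7 CPM in unstimulated DMSO cells and 18.4 to 21.1 CPM in SGC0946 cells, and those of 13 T and NK cell markers were 8.55 to 13.8 and 13.98 to 18.8 CPM. Each sum includes 1 of the 104 genes, Cd22 or Cd4, with group means of 9.11 to 15.2 CPM in these cells. Of the other markers in these lists, Cd79b stood at 2.13 to 6.13 CPM over all libraries, and Lck averaged 19.9 CPM after LPS in DMSO cells and 37.5 CPM in SGC0946 cells. The defining genes Cd79a, Ms4a1 and Cd3e stayed at 0.33 CPM or less in all libraries.

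Interferon-inducible and complement genes made up 4 of the 104. Gbp8 and Gbp4 belong to the guanylate-binding proteins, GTPases that attack vacuoles of pathogens, and Ifi44 is an interferon-inducible protein. Gbp8 read 6.54, 7.22, 5.41 and 3.75 CPM in unstimulated DMSO cells and 12.8, 15.1, 11.1 and 13.2 CPM in SGC0946 cells, and after LPS 16.5, 15.3 and 19.1 CPM and 44, 46.9 and 39.9 CPM. Ifi44 had rises of 0.91, 0.95 and 1.45. Gbp4 passed narrowly: its highest unstimulated DMSO library had 5.57 CPM and its lowest SGC0946 library 5.59 CPM. Gbp4 and Gbp8 are close paralogs, and how reads shared between them were counted is not given in the sources used here, so both are uncertain. C1ra, a protease of the classical complement pathway, had rises of 0.69, 0.83 and 0.83.

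Secreted and matrix proteins were 12 of the 104. Mmp12, the macrophage elastase, read 309.5, 251, 312 and 271 CPM in unstimulated DMSO cells and 572, 397, 810.3 and 594 CPM in SGC0946 cells. Mmp13, a collagenase, read 15.6, 15.9, 13.4 and 11.2 CPM and 33.8, 25.5, 43.1 and 33.1 CPM. After LPS Mmp13 read 2245, 2248 and 2712 CPM in DMSO cells and 4589, 3995 and 4708 CPM in SGC0946 cells. The SGC0946 libraries stayed above the DMSO libraries at 171-fold (DMSO) and 131-fold (SGC0946) the unstimulated level.

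The pair is shown by sequence because the genes lie side by side, with a gap of 61.1 kb and no other expressed gene between them, and both were induced by LPS. The windows run from 250 bases before to 50 after the RefSeq start site nearest to the counted transcript (GRCm38.p6, plus strand): chr9:7272264-7272563 for Mmp13 and chr9:7347124-7347423 for Mmp12. Capitals mark TATAAA, the letters of a TATA box core, and TGANTCA, each searched on both strands. In TGANTCA the N is any base, so it takes in more than TGACTCA and TGAGTCA, the letters bound by AP-1 factors.
Mmp13: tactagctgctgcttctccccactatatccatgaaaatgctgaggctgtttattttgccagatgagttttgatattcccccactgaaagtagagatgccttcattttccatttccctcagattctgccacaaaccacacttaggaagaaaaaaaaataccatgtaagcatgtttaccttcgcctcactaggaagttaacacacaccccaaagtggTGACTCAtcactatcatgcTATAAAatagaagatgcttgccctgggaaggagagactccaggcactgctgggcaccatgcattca
Mmp12: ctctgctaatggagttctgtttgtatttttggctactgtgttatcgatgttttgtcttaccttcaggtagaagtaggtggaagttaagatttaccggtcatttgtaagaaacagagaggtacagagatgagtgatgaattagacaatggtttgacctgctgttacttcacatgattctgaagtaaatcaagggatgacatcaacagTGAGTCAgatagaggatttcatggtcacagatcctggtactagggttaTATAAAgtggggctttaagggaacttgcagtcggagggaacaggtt
Both windows hold both motifs. TATAAA begins at -16 from the start site in Mmp13 and at 4 in Mmp12, after the start used for its window. A TATA box usually lies farther before the start than either match, so neither stands where one would for the start used. TGANTCA begins at -35 and -44. Of the windows of 8433 other genes at the same level in control cells, 6.51% hold TATAAA, 4.54% hold TGANTCA and 0.439% hold both. Over the 76 windows given for the 104 genes, this pair included, the shares were 11.8%, 11.8% and 3.95%. Over 41 windows of the 72 genes lower under SGC0946 throughout they were 12.2%, 12.2% and 2.44%. The motifs are thus not particular to the raised genes, and the shares were not tested. A match says only that the letters are there.

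TGANTCA stood in windows of genes with either direction of the LPS response. Of the 76 windows given for the 104 genes, 9 held it. After LPS in DMSO cells 4 of these 9 genes were higher, 3 lower and 2 did not pass, by edgeR. Calls over all genes with these letters were not counted. Plaat3 (chr19:7557209-7557508, plus strand), a phospholipase and acyltransferase, is among the 9. So is Tmem37 (chr1:120073731-120074030, minus strand), a membrane protein related to calcium channel subunits. The match of Plaat3 reads TGATTCA, with T in the middle, where those of Mmp13, Mmp12 and Tmem37 have C or G. LPS raised Plaat3 by 3.71 ± 0.13 (log2 ± SE, adjusted p = 7.6e-17) in DMSO cells and changed Tmem37 by -1.69 ± 0.26 (adjusted p = 5.2e-06), both by edgeR. These 2 genes were picked after their values were seen.
Plaat3: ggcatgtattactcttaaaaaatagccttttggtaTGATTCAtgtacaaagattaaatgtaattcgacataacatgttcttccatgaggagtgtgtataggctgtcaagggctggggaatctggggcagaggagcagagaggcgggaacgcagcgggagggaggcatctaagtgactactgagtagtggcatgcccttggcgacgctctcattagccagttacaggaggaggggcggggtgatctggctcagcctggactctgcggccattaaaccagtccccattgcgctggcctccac
Tmem37: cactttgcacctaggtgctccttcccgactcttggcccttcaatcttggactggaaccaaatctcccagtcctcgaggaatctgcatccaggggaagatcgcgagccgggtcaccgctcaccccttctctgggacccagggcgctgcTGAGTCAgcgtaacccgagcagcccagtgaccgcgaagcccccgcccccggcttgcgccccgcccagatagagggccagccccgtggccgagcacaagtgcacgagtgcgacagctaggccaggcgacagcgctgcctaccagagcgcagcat
Windows were given for 76 of the 104 genes (73.1%), so the motif shares leave out part of the set and were not tested.

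Apoe, the apolipoprotein by which macrophages release cholesterol, had the highest level per length of the 104, at 468 RPKM in unstimulated DMSO cells. It read 639, 542, 608 and 551 CPM in unstimulated DMSO cells and 761, 1145, 663 and 1060.0 CPM in SGC0946 cells. SGC0946 replicates 2 and 4 were far above replicates 1 and 3, whose lower value stood 663 against 639 CPM in the highest DMSO library. Lox, which crosslinks collagen and elastin, Col15a1 and Col18a1, collagens of basement membranes, and Gpx3, the secreted glutathione peroxidase, had unstimulated rises of 1.13, 0.91, 0.64 and 0.82. Of 20 other matrix proteases and inhibitors tested, 1 was higher and 1 lower in unstimulated cells (4.55% and 4.18% of all genes). After LPS 4 were higher and none lower (3.86% and 3.26%), and with GW3965 1 was higher and 1 lower (2.24% and 1.4%).

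Growth factors and their receptors were 6 of the 104. Bmp2, a ligand of the TGF-beta family, read 4.86, 3.58, 3.18 and 3.07 CPM in unstimulated DMSO cells and 7.64, 9.38, 8.66 and 9.19 CPM in SGC0946 cells. After LPS it read 5.18, 6.81 and 9.27 CPM and 24.4, 18.3 and 18.4 CPM, and with GW3965 0.87, 0.769 and 0.507 CPM and 2.14, 3.28 and 1.71 CPM. The arms did not overlap at any of these 3 levels. Tgfbr3, the coreceptor betaglycan, Kdr, a receptor of VEGF, Pdgfc, a platelet-derived growth factor, and Npy, neuropeptide Y, had unstimulated rises of 0.74, 0.95, 0.9 and 0.61.

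Proteins of the cytoskeleton and of adhesion were a further 18 genes. The 10 for actin, myosin and intermediate filaments had median rises of 0.84, 0.88 and 0.99, and included Palld (palladin), Myh10 (a non-muscle myosin heavy chain), Cald1 (caldesmon), Mylk (myosin light chain kinase) and Nes (nestin). The 8 adhesion and surface proteins had medians of 0.84, 0.89 and 0.87. Among them Itga9, an integrin alpha chain, read 2.26, 3.58, 2.71 and 3.07 CPM in unstimulated DMSO cells and 3.73, 7.75, 4.69 and 5.2 CPM in SGC0946 cells. Jup, or plakoglobin, links cadherins to the cytoskeleton and had rises of 1.05, 0.99 and 1.08. The 12 genes of small GTPases and second messengers, such as Rac3, Rras2, Mras, Adcy3 and Prkg1, had medians of 0.79, 0.65 and 0.79.

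The rule did not use the LPS responses themselves, and each gene's response was tested. Its floor lies on the unstimulated DMSO libraries, the base of the responses in DMSO cells, and it asked for a rise after LPS. Both bear on which responses could enter, above all on falls to a very low level. The 12013 genes tested were not held to that floor, so the shares below are descriptions. In DMSO cells 39 of the 104 genes were higher after LPS by edgeR's quasi-likelihood test at an adjusted p under 0.05 (37.5%, against 35.4% of all 12013 genes tested), and 28 were lower (26.9%, against 38.7%). In SGC0946 cells 36 were higher (34.6%, against 35.8%) and 33 lower (31.7%, against 38.8%). These shares were not tested against those of all genes. With the mouse as a block, 40 were higher (38.5%, against 35.8%) and 33 lower (31.7%, against 39.1%) in DMSO cells, and 39 higher (37.5%, against 35.8%) and 38 lower (36.5%, against 39.1%) in SGC0946 cells. Library scaling bears on the split. Without TMM, with library totals alone, the median LPS response of all genes moved from -0.07 to -0.80 in DMSO cells and from -0.07 to -0.81 in SGC0946 cells, and the split moved with it. It became 22 higher (21.2%, against 16.5% of all genes) and 63 lower (60.6%, against 72.2%) in DMSO cells and 23 higher (22.1%, against 16.5%) and 67 lower (64.4%, against 72.4%) in SGC0946 cells.

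The LPS responses of the arms lay close together, which is a description only. For each gene the difference between them is in essence the difference between its rises, which the rule used. Of the 104 genes, 33 were higher in both arms, 25 lower in both and 26 passed in neither, and none was higher in one and lower in the other. Counts over both arms were not made for all genes, so these show nothing particular to the 104. Genes at least doubled by LPS in DMSO cells and past the threshold numbered 23 (22.1%, against 15.9% of all genes), and 15 were at least halved (14.4%, against 17.9%). Mmp13 changed by 7.42 ± 0.16 (log2 ± SE, edgeR adjusted p = 3.7e-20) in DMSO cells and by 7.03 ± 0.16 (adjusted p = 5e-20) in SGC0946 cells. Gbp4 changed by 7.40 ± 0.19 and 7.36 ± 0.18, Ifi44 by 4.25 ± 0.19 and 4.33 ± 0.18, Clic5, a chloride channel protein tied to actin, by 3.89 ± 0.15 and 3.15 ± 0.14, and Lox by 3.85 ± 0.16 and 3.24 ± 0.14. These 5 had the largest responses upward in DMSO cells.

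Downward, Engase, a cytosolic enzyme that releases N-glycans, led with -5.04 ± 0.34 (edgeR adjusted p = 1.4e-11) in DMSO cells and -4.60 ± 0.29 (adjusted p = 3.9e-12) in SGC0946 cells. Its level fell from 19.6, 17.8, 21.7 and 19.3 CPM to 0.273, 0.745 and 0.692 CPM in DMSO cells and from 25.7, 33.8, 22.2 and 40.3 CPM to 1.22, 1.08 and 1.54 CPM in SGC0946 cells. All SGC0946 libraries after LPS lay far under all unstimulated DMSO libraries. Dchs1, a giant cadherin, changed by -4.36 ± 0.47 in DMSO cells, Nat8l, which makes N-acetylaspartate, by -3.27 ± 0.32, 4933431E20Rik by -3.05 ± 0.39 and Rgl3, an exchange factor of the Ral GTPases, by -2.81 ± 0.36. After LPS these genes were near or under 1 CPM in DMSO cells, so their rises there rest on few reads.

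**Figure D3:**
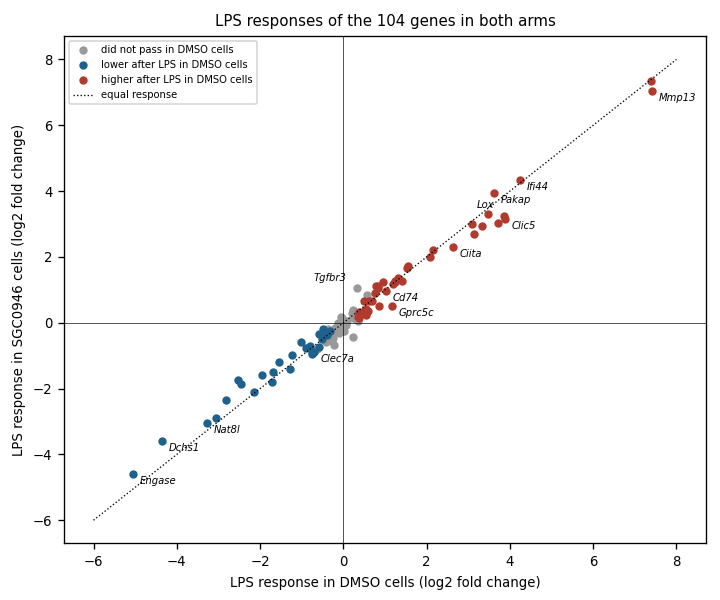
Each point is 1 of the 104 genes, with its log2 LPS response in DMSO cells on the horizontal axis and in SGC0946 cells on the vertical axis. Colours give the edgeR call in DMSO cells and the dotted line marks equal responses. The points follow the line from Engase at the lower left to Mmp13 at the upper right. A point's distance from the line reflects the difference between its rises, which the rule used. The LPS comparisons of the arms share no library.

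Rises before and after LPS were compared as a description. The rise was smaller after LPS in 58 genes and larger in 46, with a median difference of -0.04, and 87 of the 104 differed by less than 0.3 on the log2 scale. Only 6 differed by 0.5 or more. Tgfbr3 went from 0.74 to 1.46. Clic5 went from 1.3 to 0.58, Plaat3 from 1.18 to 0.56, Gprc5c, an orphan receptor, from 1.19 to 0.58, Slc18b1 from 1.53 to 0.99 and Lox from 1.13 to 0.6. The rise was smaller after LPS in 15 of the 23 genes at least doubled by LPS (median difference -0.08), in 5 of the 15 at least halved (0.11) and in 38 of the other 66 (-0.05).

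Tgfbr3 read 1.51, 2.58, 2.71 and 2.32 CPM in unstimulated DMSO cells and 3.73, 3.58, 4.87 and 4.27 CPM in SGC0946 cells. After LPS it read 3.95, 2.66 and 2.07 CPM and 8.9, 7.09 and 10.1 CPM. Its LPS response was 0.33 ± 0.26 (edgeR adjusted p = 0.26) in DMSO cells and 1.07 ± 0.20 (adjusted p = 7e-05) in SGC0946 cells. The difference between these responses is the difference between its rises, which the rule used, and was not tested.

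**Figure D4:**
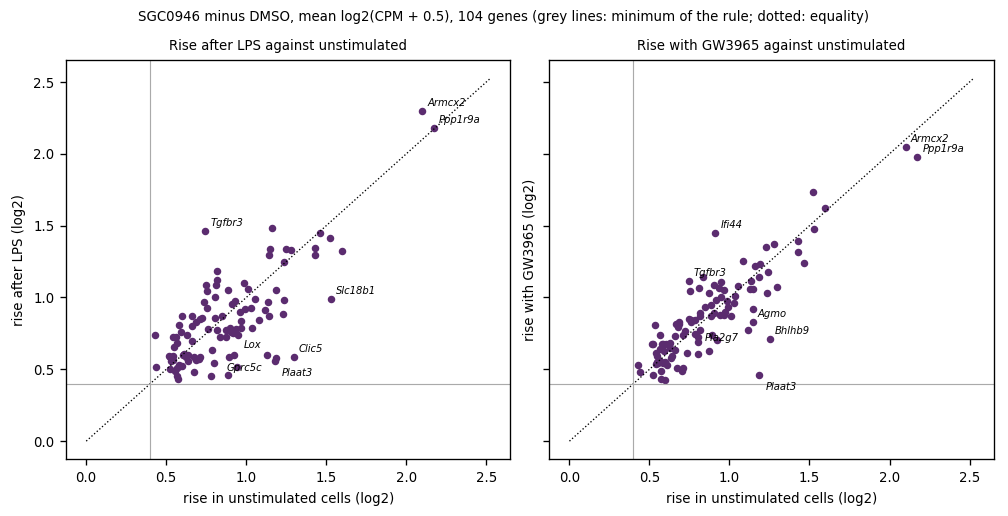
The left panel sets the rise of each of the 104 genes after LPS, and the right panel its rise with GW3965, against its rise in unstimulated cells, all as differences of mean log2(CPM + 0.5). Grey lines mark the minimum of 0.4 that the rule set, and the dotted line marks equal rises. Armcx2 and Ppp1r9a stand apart at the upper right, Tgfbr3 lies above the line and Clic5 and Plaat3 below it in the left panel.

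GW3965 changed few of the genes. In DMSO cells 1 was higher (Epas1, 0.962%, against 1.35% of all genes tested) and 2 were lower (Bmp2 and Spata13, 1.92%, against 1.2%). In SGC0946 cells 1 was higher (Cd38, 0.962%, against 1.32%) and 6 were lower (5.77%, against 1.11%), among them Bmp2, Kdm6b, Mamdc2, Plaat3 and Spata13. Within each arm the LPS and GW3965 comparisons share the unstimulated libraries. Bmp2 changed by -2.32 ± 0.30 (edgeR adjusted p = 6.7e-05) in DMSO cells and -1.86 ± 0.22 (adjusted p = 2e-05) in SGC0946 cells. Epas1 changed by 0.62 ± 0.16 (adjusted p = 0.036) and Spata13, an exchange factor of small GTPases, by -0.57 ± 0.13 (adjusted p = 0.017) in DMSO cells.

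With the mouse as a block, calls grew over all genes too. The counts were then 4 higher (3.85%, against 2.04% of all genes) and 8 lower (7.69%, against 2.38%) in DMSO cells, and 2 higher (1.92%, against 1.77%) and 6 lower (5.77%, against 1.52%) in SGC0946 cells. Of the 6 lower genes in SGC0946 cells, 5 were the same. Spata13 lost its call there (adjusted p = 0.049 without the block and 0.081 with it), and Camk2a, a calcium-dependent kinase, gained one (0.095 and 0.040). Apoe, a known liver X receptor target, changed with GW3965 by 0.69 ± 0.19 (edgeR adjusted p = 0.059) in DMSO cells without the block and by 0.71 (adjusted p = 0.023) with it. In SGC0946 cells the values were 0.65 ± 0.19 (adjusted p = 0.083) and 0.68 (adjusted p = 0.038). Epas1 lost its call when any 1 of DMSO replicates 1 to 3 or of the 3 DMSO+GW3965 libraries was left out. The 6 lower genes in SGC0946 cells fell to 1 without SGC0946+GW3965 replicate 1 or 3 and to 2 without SGC0946 replicate 2 or 4.

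The genes had a low level and a long span. The rule used the unstimulated DMSO libraries for its floor and as the base of a rise, so the level is given as a description only. It did not use the span. The median level in unstimulated DMSO cells was 1.75 RPKM over the 104 genes and 10.8 RPKM over the other 10392 genes at the floor, and 13 of the 104 lay above the latter value. The floor of the rule was the same for both sets. By RefSeq (GRCm38.p6) the genes spanned a median of 42.3 kb, against 23.2 kb for the others and 47.3 kb for the 72 genes lower under SGC0946 throughout. More than 100 kb was spanned by 36 of the 104 (34.6%), by 11.3% of the others and by 27.8% of those 72. The longest was Prkg1, a cGMP-dependent protein kinase, at 1201 kb.

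Below 50 CPM, genes over 100 kb made up a larger share of the genes chosen by the rule than of the others. Between 2 and 10 CPM, 22 of 62 genes (35.5%) exceeded 100 kb, against 9.58% of the others at that level. Between 10 and 50 CPM it was 14 of 35 (40.0%), against 9.91%. At 50 CPM or more none of the 7 did, against 14.1% of the others.

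**Figure D5:**
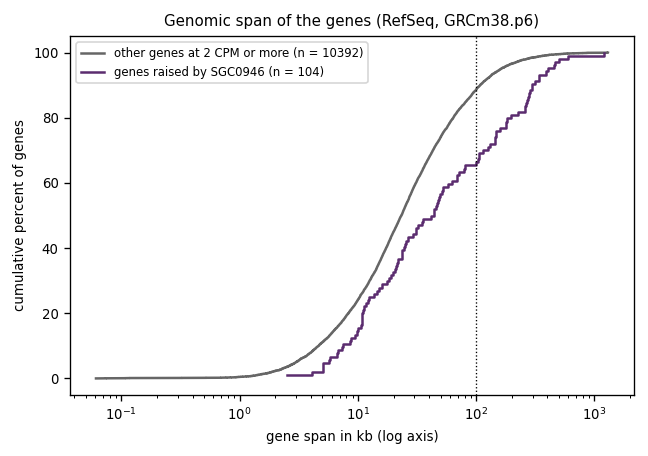
Cumulative percent of genes (vertical axis) by genomic span in kb (horizontal log axis) for the 104 genes and for the other 10392 genes at 2 CPM or more in unstimulated DMSO cells. The dotted line marks 100 kb, where the curve of the 104 genes stands at 65.4% and that of the others at 88.7%.

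Some of the 104 were neighbours. Within 500 kb of each other lay 6 pairs, holding 12 genes: Emp2 and Ciita, Cd74 and Camk2a, Gbp8 and Gbp4, C1ra and Cd4, Clec1a and Clec7a, and Mmp13 and Mmp12. That is 11.5% of the genes. Of the 72 genes lower throughout, 27 (37.5%) lay in such pairs among themselves. Those 27 genes formed 255 pairs, so many of them lay close together, and they are also in the span values of the 72 above. The share over all genes at the floor was not taken. Clec1a and Clec7a were the closest, 9.59 kb apart with no other expressed gene between them. Between C1ra and Cd4 lay 13 other expressed genes. At 8 genes (4933431E20Rik, Adcy3, B3gnt7, Igf2bp3, Nynrin, Pakap, Pla2g7 and Uchl1) 10% or more of the exon length is shared with another annotated gene, so their counts are uncertain. Pakap, which joins Palm2 and Akap2, shares 98.2% of its exons with those genes.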

How the data were processed

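Poly-A RNA of 20 mouse macrophage libraries was sequenced. The submitters' processing notes name STAR 2.5.2b, SAMtools 1.3.1 and the build mm10. How reads were assigned to transcripts, and whether by strand, is not given in the sources used here, so antisense partners cannot be told apart. The authors deposited counts of reads per RefSeq transcript, a table of RPKM values of the same transcripts and a sample sheet with a mouse number per library. Symbols came from the RefSeq gene table (GRCm38.p6), which named 35440 of 35745 transcripts. The unnamed ones held 1.17% of counts and were left out. For 6035 symbols with several transcripts the one with the highest total count was kept, which left 57.3% of counts. RPKM served for levels between genes and for an alternative choice of transcript.

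CPM were scaled by TMM factors (0.686 to 1.19) in edgeR 4.0.16 under R 4.3.3. Tests of LPS and GW3965 responses used edgeR's quasi-likelihood fit over all 6 groups, with 12013 genes kept by filterByExpr (minimum count 10) and Benjamini-Hochberg adjustment over all of them. DESeq2 1.42.0 was an alternative. Other alternatives were other scalings, filters, transcripts, rule thresholds and left-out libraries. The steps were tested on simulated data. Libraries of one group differed by more than counting noise (chi-square per gene 3.09 to 14.4). Intervals and adjusted p-values cover the spread between these libraries. The mouse number equals the replicate number in 20 of 20 libraries, so numbers pair the samples. Deviations of same-numbered libraries correlated at 0.057 to 0.55 over the comparisons, and those of different numbers at -0.46 to 0.29. In unstimulated cells DMSO replicate 3 correlated at 0.057 with SGC0946 replicate 3 and at 0.14 with replicate 4. DMSO replicate 4 correlated at 0.080 with SGC0946 replicate 4 and at 0.15 with replicate 3. The pairing of replicates 3 and 4 there thus rests on the sample sheet. The fit without the mouse was the main one, and the fit with the mouse as a block is given beside the counts of LPS and GW3965 calls.

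The 104 genes, the 22 gene lists and the roles were chosen with earlier results of these data known. Named genes were the 12 with the largest mean rise, members of those lists, the 5 largest LPS and up to 3 largest GW3965 responses in each direction, the 3 highest in CPM and the 3 nearest each side of each threshold. Other genes were named by role. For 1 of the 104 genes the single-gene values are not reported here, in the text, the heat map of genes by library or the other settings. It stays in all counts and medians.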

Additional observations from a re-analysis of the deposited data

Results flagged for a closer look

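Among 39 named genes, 78 sets of 4 unstimulated libraries were screened for a value far from the others, where chance alone marks about 1 in 20. The screen marked 2. Ppp1r9a stood at 31.7 CPM in SGC0946 replicate 2, against 16.6 to 18 CPM in the other 3 SGC0946 libraries. Dchs1 stood at 8.69 CPM in SGC0946 replicate 4, against 6.41 to 6.70 CPM in the others. In both genes the remaining SGC0946 libraries were also above every DMSO library, which the rule fixes. The cause was not tested.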

How the results depend on the processing

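The number of genes that met the rule lay between 91 and 135 under the other settings, apart from 66 with a floor of 5 CPM, and leaving out 1 library gave 102 to 114. TMM factors from all symbols, an alternative chosen after seeing the data, gave 102. Leaving out 1 library gave median rises of 0.80 to 0.87 (unstimulated), 0.74 to 0.86 (LPS) and 0.77 to 0.88 (GW3965). With library totals the LPS counts were 22 higher and 63 lower in DMSO cells and 23 and 67 in SGC0946 cells, beside 16.5% higher and 72.2 and 72.4% lower of all genes. That scaling lowered the median response of all genes from -0.07 to -0.80 and -0.81. Small responses that had not passed the threshold turned negative with it, those of Armcx2 (-0.59), Plxdc2 (-0.69) and Sfmbt2 (-0.63) in SGC0946 cells and of Slc18b1 (-0.50) in DMSO cells. Leaving out 1 library gave 34 to 39 higher and 25 to 32 lower after LPS in DMSO cells and 34 to 38 and 24 to 35 in SGC0946 cells. The shares of all genes without 1 library are not given here.

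For GW3965 in DMSO cells, higher and lower counts were 2 and 4 with DESeq2, 3 and 4 without a filter, 4 and 7 with only the 2 groups compared and 4 and 8 with the replicate block. Library totals gave 3 higher (2.88%, against 1.07% of all genes) and the stricter filter 2. In SGC0946 cells higher counts were 2 without a filter, 2 with the block and 0 with only the 2 groups, where 3 were lower. Without SGC0946 replicates 2 and 4 they were 2 higher and 1 lower. Leaving out 1 library gave 0 to 1 higher and 1 to 5 lower in DMSO cells and 0 to 2 and 1 to 8 in SGC0946 cells. Shares of all genes are given above for the block and for library totals, and not for the other settings. There it cannot be told whether the calls moved for these genes or for all genes.

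Of 239 tested list genes outside the 104, 28 were higher and 21 lower under SGC0946 in unstimulated cells, 32 and 10 after LPS and 7 and 13 with GW3965. Of all genes tested, 4.55% were higher and 4.18% lower in unstimulated cells, 3.86% and 3.26% after LPS and 2.24% and 1.4% with GW3965. The shares of all genes under the settings that follow are not given here. With the replicate block 44 were higher in unstimulated cells and 19 with GW3965. Without SGC0946 replicates 2 and 4, chosen after seeing the data, 6 were higher in unstimulated cells. With GW3965, 13 were higher without a filter, 3 with the stricter one and 0 with only the 2 groups. DESeq2 gave 17 lower after LPS. Leaving out 1 library gave 14 to 29 higher and 13 to 20 lower in unstimulated cells, 13 to 29 and 8 to 14 after LPS and 1 to 7 and 11 to 16 with GW3965. The lowest counts came without DMSO replicate 4 (14), DMSO+LPS replicate 2 (13) and DMSO+GW3965 replicate 2 (1). The cause of these shifts was not tested. Genes near 2 CPM rest on few reads.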
